A study of Homo sapiens with 9 samples.

Results

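The proteasome is the large protease that degrades ubiquitin-tagged proteins, and 43 genes of its subunits, activators, inhibitor and dedicated assembly chaperones were followed here in HEK293T cells exposed to a fluorogenic RNA ligand. Members were the genes named PSMA to PSMG plus a number, with a mean of at least 100 raw counts over the 9 libraries, and they made up 43 of the 57500 genes counted. None of the 43 passed an adjusted p of 0.05 between HBC530 and DMSO, between MsOc3HBC and DMSO, or, without a replicate block, between MsOc3HBC and HBC530 (edgeR), where 0.0170, 0.154 and 0% of all genes tested did. When same-numbered libraries of the ligands were compared as pairs, 3 members, PSMC4, PSMD3 and PSMF1, were lower with MsOc3HBC than with HBC530, by 0.16 to 0.20 on the log2 scale, in a comparison where 11.4% of all genes passed. With trends in GC content and exonic length also removed from that paired fit, 0 members passed, beside 1.65% of all genes. The pairing by number is itself uncertain, as the labels do not tie the numbers to a day or batch.

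HEK293T, an established human embryonic kidney line, was exposed for 5 h to 10 µM HBC530, to 10 µM MsOc3HBC or to the vehicle DMSO. HBC530 is a dye that lights up when it binds the RNA aptamer Pepper, and MsOc3HBC is the same dye with a mesyloxypropyl handle that can alkylate a guanine of that aptamer. Poly(A) RNA was sequenced from 3 biological replicates of each treatment, 9 libraries in all, and the comparison addresses whether such a ligand alters cellular transcripts. All groups share the parental line, which carries no further stated modification, and nothing in the labels ties the replicate numbers to a day or batch.

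A proteasome core particle is a barrel of stacked rings. The outer rings of alpha subunits gate the entrance, and the inner rings of beta subunits carry the proteolytic sites. A regulatory particle, made of a base with a ring of ATPases and of a lid that removes ubiquitin, caps the barrel, recognises substrates and unfolds them. Alternative caps (the PSME activators) and immune forms of the catalytic subunits (PSMB8, PSMB9 and PSMB10) change which peptides are made. When proteasome activity drops, the transcription factor NRF1 (gene NFE2L1) is known to raise most subunit genes together, through antioxidant response elements in their promoters.

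By role, the members were 7 genes of the alpha ring, 7 of the constitutive beta ring, 1 immune catalytic subunit (PSMB10), 6 ATPases, 3 other base subunits, 8 lid subunits, 2 base chaperones (PSMD9 and PSMD10), 4 activators, 1 inhibitor (PSMF1) and 4 core chaperones. PSMB10 lay closest to the count minimum from above, at a mean of 256.7 counts. PSMD5 (39.0) and PSMB9 (32.8) lay well below it. PSMA8, PSMB8 and PSMB11, the testis, immune and thymus forms of core subunits, were outside the deposited comparison tables, with 1, 7 and 2 counts over all 9 libraries. All 43 members passed the filter on low counts in each comparison.

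The promoter element through which NRF1 is known to act is shown first. Of the 43 members, 37 matched a RefSeq promoter table (GRCh38.p14, 250 bases before to 50 after each start, on the strand of the gene). The core of the antioxidant response element, TGACNNNGC on either strand, occurred in the windows of 13 of the 37 (35.1%), and in 16.1% of the 27305 genes with a window. The other motif searched was CCAAT on either strand, which can overlap the first, in 18 of the 37 (48.6%) and in 39.7% of all. The stretches below lie upstream of the start in members spread over the roles, 1 match for each gene, with the matched letters in capitals.
PSMA4, alpha ring, chr15:78540650-78540678, plus strand: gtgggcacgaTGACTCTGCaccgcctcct
PSMB3, beta ring, chr17:38752627-38752655, plus strand: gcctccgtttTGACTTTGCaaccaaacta
PSMC5, ATPase, chr17:63827654-63827682, plus strand: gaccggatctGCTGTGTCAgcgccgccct
PSMD3, lid, chr17:39980760-39980788, plus strand: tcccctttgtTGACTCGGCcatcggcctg
PSMD12, lid, chr17:67366724-67366752, minus strand: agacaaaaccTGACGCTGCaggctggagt
PSME1, activator, chr14:24136098-24136126, plus strand: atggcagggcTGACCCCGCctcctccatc
PSMG1, core chaperone, chr21:39183616-39183644, minus strand: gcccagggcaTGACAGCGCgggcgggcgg
A match is a run of letters and not a measured binding site. The 13 members with a match had a median log2 fold change of 0.05 with HBC530 and 0.06 with MsOc3HBC against DMSO, and the 24 without one had -0.01 and -0.02, with none of either kind past the test.

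The libraries held between 28056929 and 62205366 counts, and the 43 members together took 0.706 to 0.791% of them. In a principal component analysis of 18041 genes, replicate 3 of HBC530 (36.9) and of MsOc3HBC (48.8) stood apart on the first component from the other 7 libraries, which lay between -20.3 and -4.28. These 2 libraries were also the smallest, with 34963314 and 28056929 counts, and had the highest share of member counts, 0.786 and 0.791%. Markers of HEK293T (PAX2, LHX1, NEFM, NEFL, VIM and CDH2) summed to 341 to 391 TPM (transcript level per exonic length, scaled to the same total in each library). With MsOc3HBC against DMSO, 4 of these 6 had an unadjusted p under 0.05, beside 10.9% of all genes, with log2 fold changes of 0.48 for NEFM, -0.48 for PAX2, -0.35 for LHX1 and -0.20 for NEFL. None passed an adjusted p of 0.05 (smallest 0.196, edgeR), and their part in the values below was not tested. A list of 8 markers of blood, liver, fibroblast and skin cells summed to 7.62 to 14.7 TPM, with KRT5 at 0 counts. In such bulk libraries, fewer cells expressing a gene and less of its RNA per cell cannot be told apart.

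Levels between genes are given in TPM, with the exonic lengths of the count files, which sum the exons of every annotated transcript. Since these can be much longer than the transcript a cell makes, the levels were also divided by the length of the canonical transcript in GENCODE v44. This choice was made after seeing the data, and several of the orders that change are named. In the DMSO libraries the 43 members summed to 7987, 7921 and 7796 TPM, a mean of 7901 ± 97.0 (SD, n = 3). Their sum was 7872 ± 198 TPM with HBC530 and 7724 ± 525 TPM with MsOc3HBC. The beta ring had the highest sum of any group in DMSO, with 2696 ± 6.27 TPM over 7 genes, and 5039 ± 20.0 TPM with canonical lengths. The alpha ring summed to 1291 ± 31.4 TPM, and 3 of its 7 genes share bases with other genes. The ATPases summed to 1117 ± 7.73 TPM and the lid to 1102 ± 26.3 TPM, a gap of less than the SD of the lid that widened to 2036 ± 15.1 against 2728 ± 67.4 TPM with canonical lengths.

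Within the core particle, PSMA7 of the alpha ring had the highest level of all members in DMSO, 706, 724 and 707 TPM. The catalytic subunits PSMB7, PSMB5 and PSMB6, which cut after basic, hydrophobic and acidic residues, had 502 ± 14.8, 372 ± 6.10 and 320 ± 0.848 TPM in DMSO. PSMB3, a non-catalytic beta subunit, was the highest of its ring at 539 ± 14.9 TPM, and PSMB2 the lowest at 171 ± 2.35 TPM, a 3.15-fold range. With canonical lengths PSMB4, also non-catalytic, was the highest, PSMB2 was again the lowest, and the range was 6.31-fold.

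The alpha ring spanned 63.0-fold, down to PSMA2 with 12.1, 10.6 and 11.2 TPM in DMSO, and 30.8-fold with canonical lengths, again from PSMA7 to PSMA2. Of the bases of the canonical PSMA2 transcript in GENCODE v44, 54.5% are shared with a same-strand gene of the annotation used for counting. The share is 67.0% for PSMA1, 81.4% for PSMA6, 56.1% for PSMB10 and 44.8% for PSMD9. Only unique gene hits were counted, which leaves out reads over bases that belong to more than 1 gene. By canonical length, PSMA6 moved from rank 35 to rank 17 and PSMA1 from rank 25 to rank 20 of 43. Dividing by the unshared canonical bases alone, also chosen after seeing the data, moved them on to ranks 1 and 4. PSMD6, a lid subunit in which both canonical measures give 470.7 TPM, moved from rank 31 to 13 by canonical length alone. Levels of the 5 genes that share bases are therefore uncertain against those of other genes. A ratio of 1 gene between treatments is the same whichever length its level is divided by. Trends of a library with length are a separate matter, treated with the paired comparison below.

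In the regulatory particle, PSMC3 was the highest ATPase in DMSO at 397 ± 4.21 TPM and PSMC6 the lowest at 37.4 ± 1.57 TPM, whereas with canonical lengths PSMC5 was the highest (662.5 TPM) and PSMC1 the lowest (96.6 TPM). PSMD4, a ubiquitin receptor of the base, had 329 ± 9.50 TPM, and PSMD1, a base scaffold, 152 ± 13.2 TPM. The lid ran from PSMD3, a scaffold subunit, at 265 ± 7.37 TPM to PSMD14, the deubiquitinating enzyme, at 44.9 ± 1.04 TPM. With canonical lengths PSMD3 was again the highest (613.6 TPM), but PSMD12 was the lowest (121.2 TPM) and PSMD14 had 220.8 TPM. Exons of PSMC1 overlap those of NRDE2 on the opposite strand over 75.8% of their length, and the strand setting of the counting is not given in the sources used here, so its level is uncertain.

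Among the parts that are not built into the standard particle, PSME3, which forms the nuclear activator, led in DMSO with 219 ± 3.23 TPM. PSME1 and PSME2, the pair that forms the interferon-inducible activator, had 59.2 ± 2.49 and 56.0 ± 0.774 TPM, but 109.3 and 252.9 TPM with canonical lengths, so that their order depends on the length used. PSME4, the largest activator, had 36.1 ± 2.40 TPM and the inhibitor PSMF1 133 ± 9.20 TPM. With canonical lengths PSMF1 had 86.7 TPM, below PSME1 and PSME2. Its canonical transcript (8154 bases) is longer than the exonic length used for counting (5296 bases), so this value is low by construction. Of the core chaperones, PSMG1 had 166 ± 8.83, PSMG3 107 ± 10.6, PSMG2 20.1 ± 1.16 and PSMG4 10.6 ± 0.391 TPM in DMSO. PSMG1 pairs with PSMG2, and PSMG3 with PSMG4. The exonic length of PSMG4 in the count files is 10418 bases against 785 in its canonical transcript, so its TPM is low by construction. With canonical lengths PSMG4 had 140.5 TPM, above PSMG2 at 63.1 TPM.

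**Figure D1:**
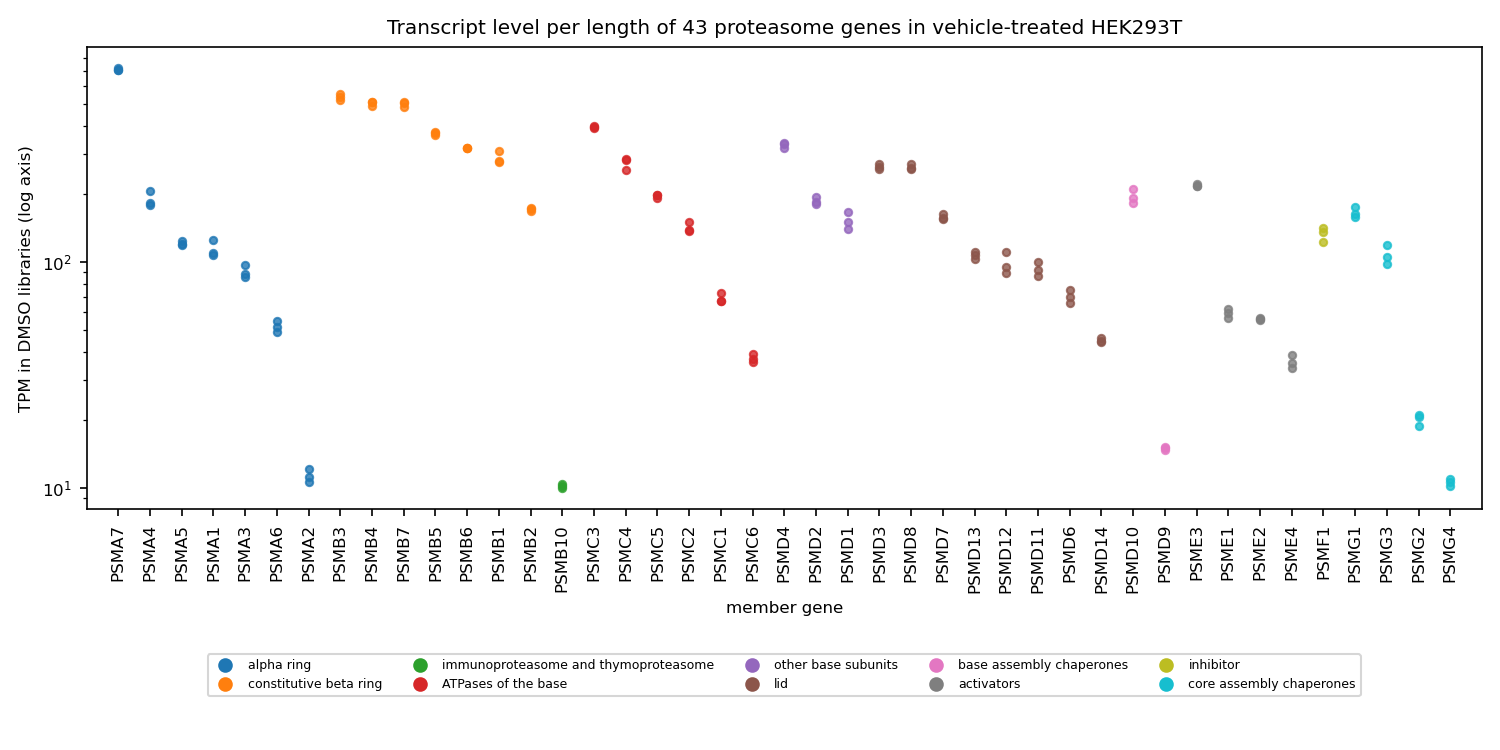
Transcript level in TPM (log axis) of each of the 43 members in the 3 DMSO libraries (points), coloured by structural role and sorted by level within a role. The 7 constitutive beta subunits have means of 171 to 539 TPM. PSMA2, PSMB10 and PSMG4 are drawn near 10 to 12 TPM, values that depend on the exonic length and, for PSMA2 and PSMB10, on bases shared with other genes.

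Of the immune catalytic subunits, PSMB8 was at or below the floor of detection, PSMB9 was low and PSMB10 was well above the floor. PSMB8 had no count in any DMSO library, which allows up to 0.0660, 0.0503 and 0.0482 CPM (counts scaled to library size) there, and at most 2 counts in any ligand library. PSMB9 had 27, 42 and 47 counts with DMSO, 39, 34 and 29 with HBC530 and 33, 30 and 14 with MsOc3HBC, and its transcript lies opposite to TAP1. As a share of their standard counterparts in TPM, PSMB9 stood at 0.237 ± 0.0234% of PSMB6 and PSMB10 at 2.02 ± 0.0378% of PSMB7 in DMSO. With canonical lengths these shares were 0.408 ± 0.0402% and 2.11 ± 0.0395%, and with unshared bases alone that of PSMB10 was 4.81 ± 0.0899%.

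PSMB10 had 5.34, 5.59 and 5.50 CPM with DMSO, 5.22, 5.24 and 5.42 with HBC530 and 4.37, 4.65 and 6.79 with MsOc3HBC. CPM here are scaled with the TMM method, which corrects for composition, and they compare 1 gene between libraries. The MsOc3HBC libraries of PSMB10 lay on both sides of the DMSO libraries, with replicate 3 the highest of the 9. Its log2 fold change with MsOc3HBC was -0.08 (SE 0.162, 95% interval -0.43 to 0.28, edgeR adjusted p = 0.885).

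With HBC530, 0 of the 43 members passed an adjusted p of 0.05 (edgeR, quasi-likelihood F test, adjusted after Benjamini-Hochberg over all genes), where 0.0170% of the 17684 genes tested did. None had an unadjusted p under 0.05 either, against 5.07% of all genes, and the smallest adjusted p of a member was 0.751. DESeq2 also called 0 members, with 0 at an unadjusted p under 0.05 (2.05% of 35505 genes, a set without the filter on low counts). In the edgeR fit, no member passed the threshold of the study's methods, an adjusted p below 0.5 and a change of over 1 (log2). Of all genes in that fit 0.0226% did, a share that is not the study's own count, since the study used DESeq2. The estimates ran from -0.17 to 0.22 on the log2 scale with a median of 0.04, beside a median of 0.00464 over all genes. Without replicate 3 of HBC530 the median was -0.04 and the estimates ran from -0.13 to 0.06.

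The member with the smallest p was PSMD12, a lid scaffold, with 169, 149 and 143 CPM in DMSO and 141, 139 and 129 CPM with HBC530. All 3 HBC530 libraries lay below the lowest DMSO library, the nearest by a small margin. Its log2 fold change was -0.17 (SE 0.0912, 95% interval -0.37 to 0.03, edgeR adjusted p = 0.751). PSMG4, a core chaperone, had 30.1, 33.3 and 33.0 CPM with DMSO and 33.5, 33.3 and 45.9 with HBC530, a log2 fold change of 0.22 (SE 0.129, interval -0.06 to 0.51). Here the groups met without overlap, and replicate 3 supplied the difference. PSMG3, with which PSMG4 pairs, had 54.6, 67.9 and 61.4 CPM with DMSO and 64.5, 59.5 and 89.5 with HBC530, again with overlap everywhere but in replicate 3. The libraries of HBC530 and DMSO did not overlap for 3 members (PSMG4 higher, PSMD11 and PSMD12 lower), as they did not for 13.9% of all genes (7.23% higher and 6.63% lower).

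With MsOc3HBC, 0 of the 43 members passed an adjusted p of 0.05 against DMSO in edgeR, where 0.154% of 17514 genes did. One member, PSME3, had an unadjusted p under 0.05, against 10.9% of all genes. DESeq2 called 0 members, with 2 at an unadjusted p under 0.05, both lower. Of all genes 4.65% were at that p, but over 35395 genes without the filter on low counts, so this share is not like the 10.9%. In the edgeR fit, the threshold of the study's methods was passed by 0 members and 0.560% of all genes. The study applied that threshold to DESeq2 results, so this share is not its own count. The estimates ran from -0.23 to 0.23 with a median of 0.03, beside 0.01 over all genes, and without replicate 3 of MsOc3HBC the median was -0.09.

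PSME3, the nuclear activator subunit (chromosome 17, 42824385 to 42843758, GRCh38), had 319, 334 and 333 CPM with DMSO. It had 313, 322 and 283 CPM with HBC530 and 272, 292 and 275 CPM with MsOc3HBC. All 3 MsOc3HBC libraries lay below all 3 DMSO libraries, and 2 of the 3 HBC530 libraries did. The log2 fold change with MsOc3HBC was -0.23 (SE 0.0875, 95% interval -0.42 to -0.04, unadjusted p = 0.0238, edgeR adjusted p = 0.401). The value was therefore not past the test once all genes were counted.

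PSMD3, the most abundant lid transcript, had 365, 395 and 393 CPM with DMSO and 319, 335 and 348 CPM with MsOc3HBC, also without overlap. Its log2 fold change was -0.20 (SE 0.0912, 95% interval -0.40 to 0.00292, edgeR adjusted p = 0.465). PSME1 stood on the other side, with 31.2, 29.4 and 31.5 CPM in DMSO and 32.9, 30.03 and 44.9 CPM with MsOc3HBC, a log2 fold change of 0.23 (SE 0.140, interval -0.08 to 0.53). Its difference rested on replicate 3. In all, libraries of MsOc3HBC and DMSO did not overlap for 7 members, 1 higher (PSMG4) and 6 lower (PSMC1, PSMD2, PSMD3, PSMD11, PSMD12 and PSME3), as they did not for 18.4% of all genes (9.45% higher and 8.98% lower).

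Since PSME1 and PSME3 form different caps, their ratio was also followed. PSME1 stood at 28.3, 25.5 and 27.4% of PSME3 in TPM with DMSO, at 29.2, 27.1 and 42.3% with HBC530 and at 35.0, 29.7 and 47.2% with MsOc3HBC. PSME2 relative to PSME3 ran the same way, at 25.6 ± 0.726% with DMSO, 30.6 ± 7.12% with HBC530 and 33.7 ± 5.31% with MsOc3HBC. In each ligand the highest ratio was that of replicate 3, the library that stood apart, and the ratio was not tested. The level of these ratios depends on the length used, with PSME2 at 71.4% of PSME3 in DMSO by canonical length, while their order among libraries does not.

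**Figure D2:**
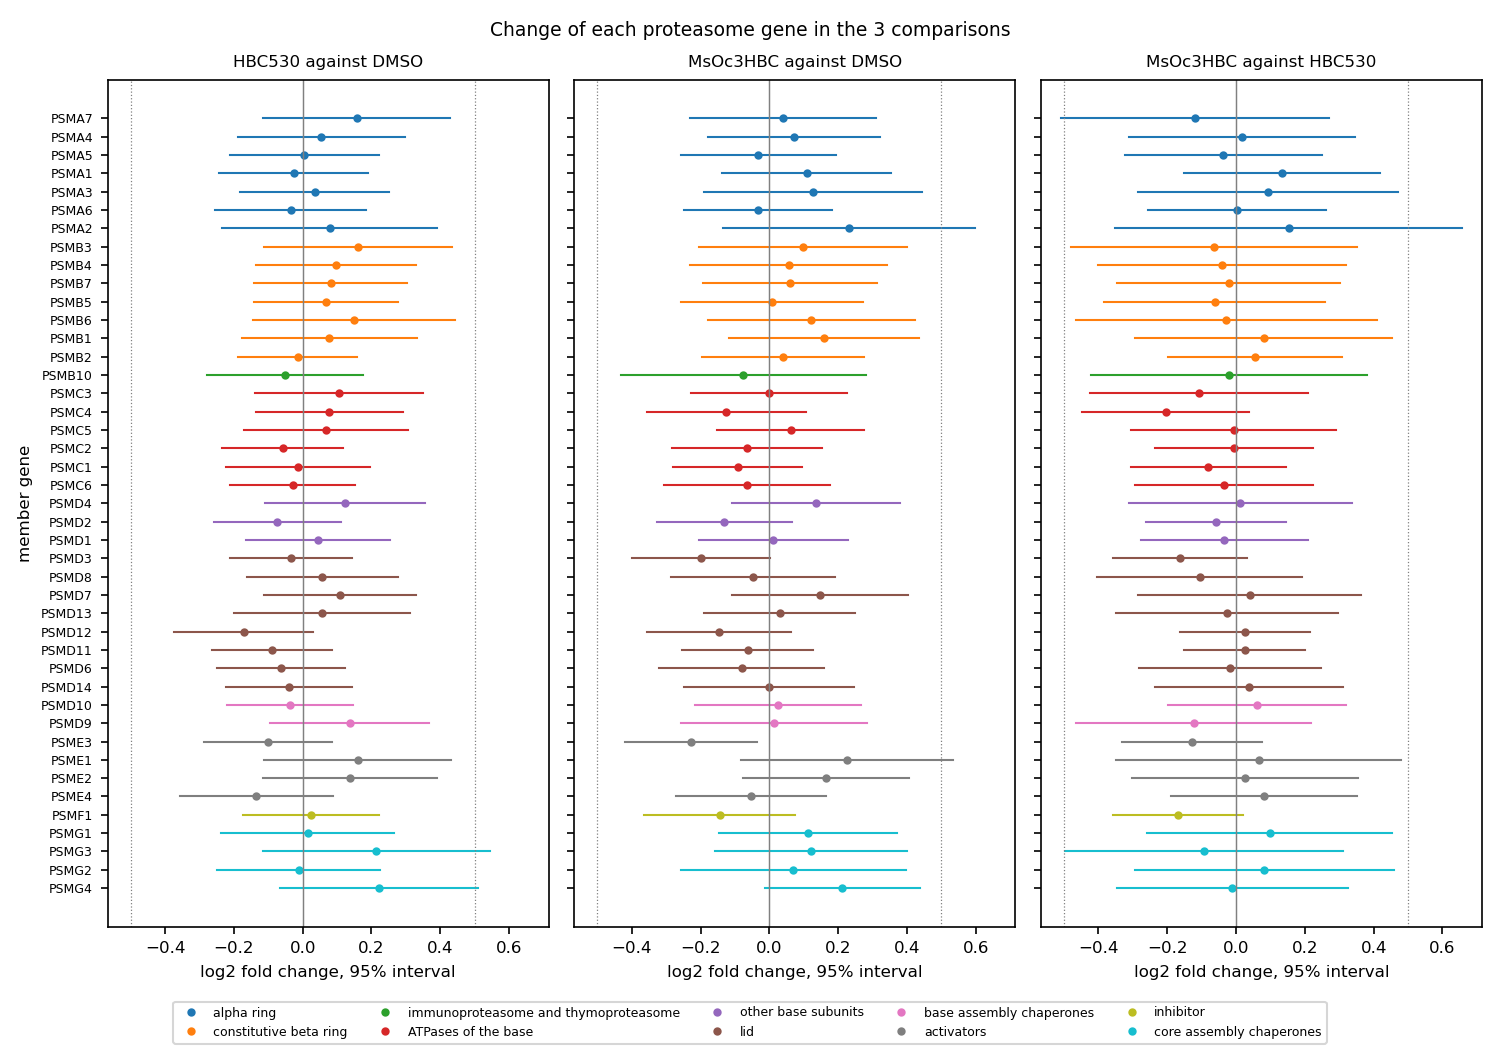
Log2 fold change (point) with its 95% interval (line) of each of the 43 members in the 3 comparisons, by edgeR without a replicate block, with members in the order and colours of their roles and dotted lines at -0.5 and 0.5. The interval of 42 members includes 0 in the middle panel, the exception being PSME3, and in each panel 41 of the 43 intervals lie within the dotted lines.

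The intervals bound the changes that these libraries leave possible. In HBC530 against DMSO, 41 of the 43 intervals lay wholly within -0.5 to 0.5 on the log2 scale, as did 59.7% of all genes and 85.5% of the genes in the CPM range of the members. In MsOc3HBC against DMSO the count was again 41, beside 55.9 and 82.9%, and between the ligands 41, beside 51.0 and 75.7%. The members whose interval passed 0.5 in either direction were PSMG3 and PSMG4 with HBC530, PSMA2 and PSME1 with MsOc3HBC, and PSMA2 and PSMA7 between the ligands. All 43 intervals lay within -1 to 1 in every comparison, as did 90.1, 88.3 and 86.6% of all genes, so that a 2-fold change of any member in either direction lay outside its interval.

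By role, no member of any group passed the test with either ligand. Of all genes, 51.1% had an estimate above 0 with HBC530 and 52.4% with MsOc3HBC. The constitutive beta ring had median log2 fold changes of 0.08 with HBC530 and 0.06 with MsOc3HBC, with 6 and 7 of its 7 genes above 0. The alpha ring had 0.03 and 0.07. The ATPases had 0.03 and -0.06, and the lid -0.04 and -0.06, with 3 and 2 of its 8 genes above 0. The core chaperones had the highest medians, 0.11 and 0.12. These medians are all below 0.182, the pooled SD of a single library's median log2 CPM over the members. That SD describes the level of a library and is not the error of these medians. In log2 CPM against the DMSO mean, the beta ring had medians of -0.01, -0.05 and 0.30 in replicates 1 to 3 of HBC530. With MsOc3HBC they were -0.06, -0.09 and 0.34.

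The spread between replicates had its own pattern. Taken as the difference from the DMSO mean of each gene in log2 CPM, the 3 DMSO libraries had 21, 20 and 27 of the 43 members above 0. In replicates 1 and 2 of HBC530 there were 15 and 3, and in replicates 1 and 2 of MsOc3HBC 7 and 3. In replicate 3 of HBC530 and of MsOc3HBC there were 36 and 35. Most members were thus below the DMSO mean in 2 libraries of each ligand and above it in the third. The share of all genes above their DMSO mean was not computed. Whether the pattern is particular to the members was therefore not tested.

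The medians of these differences were -0.02, -0.06 and 0.21 in the HBC530 libraries and -0.08, -0.10 and 0.24 in the MsOc3HBC libraries. The core chaperones (0.39 and 0.36) and the constitutive beta ring (0.30 and 0.34) were highest in replicate 3 of the ligands, and the lid (0.03 and 0.14) was lower. PSMG3 reached 0.55 in replicate 3 of HBC530 and PSMA2 0.63 in replicate 3 of MsOc3HBC. PSME4 and PSME3 stood lowest there, at -0.35 and -0.26. The median coefficient of variation of a member was 3.69% over the DMSO libraries, 11.8% over the HBC530 libraries and 13.6% over the MsOc3HBC libraries.

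**Figure D3:**
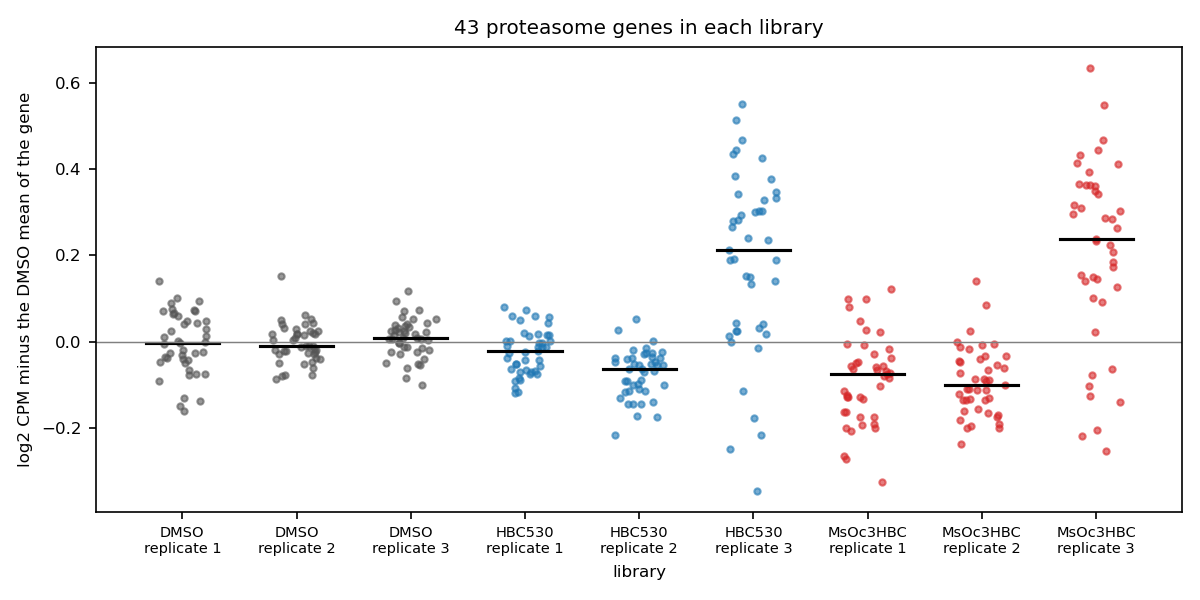
Difference of each of the 43 members (points) from its own DMSO mean in log2 CPM in each of the 9 libraries, with the median as a black bar. Medians lie at 0.21 and 0.24 in replicate 3 of HBC530 and of MsOc3HBC, and between -0.10 and 0.01 in the other 7 libraries.

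Without replicate 3 of MsOc3HBC, 11 members had an unadjusted p under 0.05 against DMSO, all of them lower, where 7.20% of all genes were lower at that p. They were PSMA5, PSMB5, PSMB10, PSMC2, PSMC4, PSMC6, PSMD3, PSMD6, PSMD8, PSME3 and PSMF1, with log2 fold changes of -0.13 to -0.28. None was past an adjusted p of 0.05, and the smallest was 0.153 for PSMD3 in edgeR. PSMB5, the chymotrypsin-like subunit, had 188, 188 and 198 CPM with DMSO, 175 and 171 CPM in replicates 1 and 2 of MsOc3HBC and 230 CPM in replicate 3. Without replicate 3 of HBC530, 0 members had an unadjusted p under 0.05 against DMSO, beside 4.91% of all genes.

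MsOc3HBC and HBC530 differ by the mesyloxypropyl handle, were given at the same dose for the same time, and were compared directly as 1 pair of compounds. Without a block, 0 of the 43 members passed an adjusted p of 0.05 in edgeR, as did 0% of 17397 genes. None had an unadjusted p under 0.05, against 7.32% of all genes. DESeq2 also called 0 members, with 0 at an unadjusted p under 0.05 (3.19% of 34961 genes, without the filter on low counts). In the edgeR fit, the threshold of the study's methods was passed by 0 members and 0.0115% of all genes. The estimates ran from -0.20 to 0.15 with a median of -0.02, beside 0.02 over all genes. A p that misses the threshold does not show equal action, and the 95% intervals of the members ran as far as -0.51 for PSMA7 and 0.66 for PSMA2.

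Libraries of the ligands with the same replicate number deviated in the same direction from their treatment means, with correlations across genes of 0.188, 0.418 and 0.479. Replicate 1 of HBC530 went further with replicate 2 of MsOc3HBC, at 0.338, so the pairing by number is uncertain. The comparison was also made within such pairs. With the replicate number as a block, 3 of 43 members passed an adjusted p of 0.05, all lower with MsOc3HBC, where 11.4% of all genes passed. A share of 3 in 43 lies below that background. At an unadjusted p under 0.05 there were 9 members, beside 27.2% of all genes. Of them 1 was higher (PSMA1), where 13.3% of all genes were, and 8 were lower, where 13.9% of all genes were.

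PSMC4, an ATPase of the base (chromosome 19, 39971005 to 39981441), had 194, 192 and 222 CPM with HBC530 and 166, 167 and 195 CPM with MsOc3HBC. Each MsOc3HBC library lay below the HBC530 library of its number. The paired log2 fold change was -0.20 (SE 0.0453, 95% interval -0.30 to -0.11, edgeR adjusted p = 0.0130). Its DMSO libraries, at 174, 198 and 205 CPM, lay within the range of the ligand libraries, and against DMSO its log2 fold changes were 0.08 with HBC530 and -0.13 with MsOc3HBC.

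PSMD3, the lid scaffold described above (chromosome 17, 39980797 to 39997960), had 366, 370 and 389 CPM with HBC530, all above its 319, 335 and 348 CPM with MsOc3HBC. The paired log2 fold change was -0.16 (SE 0.0440, edgeR adjusted p = 0.0295). PSMF1, the inhibitor (chromosome 20, 1113263 to 1189415), had 208, 209 and 212 CPM with HBC530 and 182, 180 and 197 CPM with MsOc3HBC, without overlap. Non-overlap between the ligands was seen in these 2 members, both lower, and in 15.5% of all genes (8.49% lower). The paired log2 fold change of PSMF1 was -0.17 (SE 0.0471, edgeR adjusted p = 0.0341). The DMSO libraries of PSMF1, at 186, 210 and 223 CPM, spread more widely than those of either ligand.

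The same 3 genes and PSME3 were lower with MsOc3HBC when replicate 3 of both ligands was left out, 4 of 43 members beside 9.16% of all genes. PSME3 then had a log2 fold change of -0.18 (SE 0.05197, edgeR adjusted p = 0.0417), against -0.13 and an adjusted p of 0.104 in the blocked fit of all libraries. When each library's trends with GC content and with exonic length were taken out of the blocked fit, 0 members remained past the threshold, beside 1.65% of all genes. The smallest adjusted p of a member was then 0.0546, for PSMC4, at a log2 fold change of -0.17 (SE 0.0393). PSMF1 stood at -0.16 (edgeR adjusted p = 0.0686) and PSMD3 at -0.11 (edgeR adjusted p = 0.172). At an unadjusted p under 0.05 there were 10 members beside 18.3% of all genes, 9 lower where 8.90% of all genes were and 1 higher where 9.36% were.

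**Figure D4:**
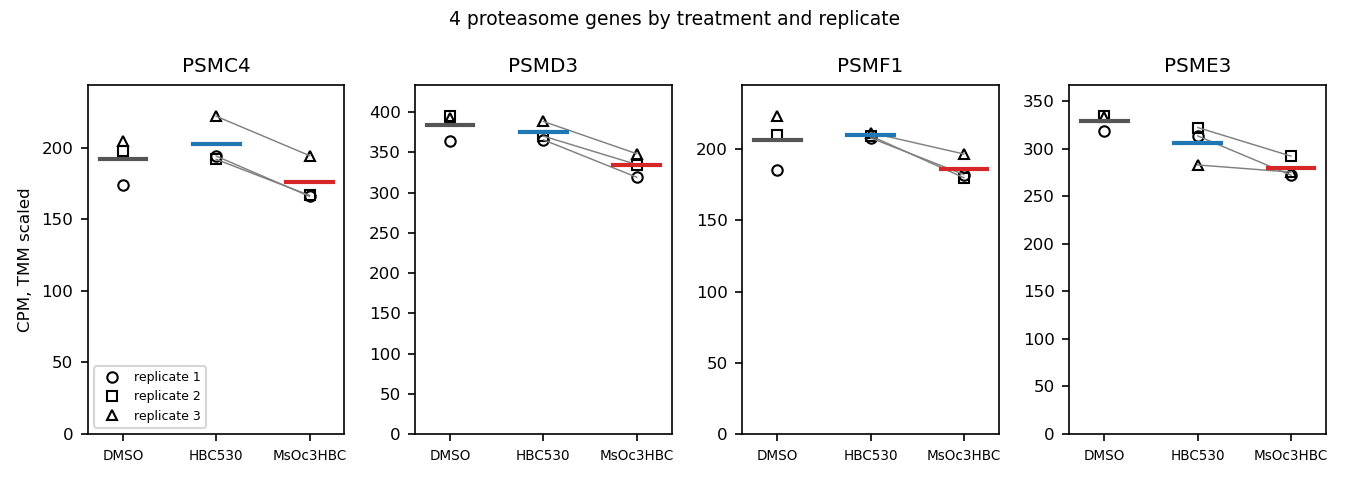
TMM-scaled CPM of PSMC4, PSMD3, PSMF1 and PSME3 in each library, with replicates as symbols, treatment means as bars and lines joining same-numbered libraries of HBC530 and MsOc3HBC, on axes that start at 0. All 12 lines slope down from HBC530 to MsOc3HBC, from 222 to 195 CPM for PSMC4 in replicate 3 at the top, and the DMSO libraries of PSMC4 and PSMF1 lie on both sides of the HBC530 mean.

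Genes that work with the proteasome but lie outside the naming rule gave 0 calls in either direction in the 3 comparisons without a block in edgeR. With the replicate block between the ligands, 6 of these 38 genes passed an adjusted p of 0.05, 2 higher and 4 lower with MsOc3HBC, beside 11.4% of all genes. The lists held 4 subunits and chaperones without a PSM number, 14 associated proteins, 6 genes around NRF1, 5 of ubiquitin and 9 of antigen processing. NFE2L1, the gene of NRF1, had 174, 170 and 164 CPM with DMSO, 171, 182 and 144 with HBC530 and 160, 179 and 133 with MsOc3HBC. In each ligand its lowest library was replicate 3, where the member median was highest. POMP, the chaperone that matures the core particle, had 160, 140 and 144 CPM with DMSO, 140, 135 and 178 with HBC530 and 151, 145 and 206 with MsOc3HBC, highest in replicate 3 of each ligand.

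Among those that fell in the paired comparison were ADRM1, MIDN and UBQLN4. ADRM1, a ubiquitin receptor of the base, had 262, 265 and 317 CPM with HBC530 and 219, 215 and 262 CPM with MsOc3HBC, each below its pair, at a log2 fold change of -0.28 (SE 0.04497, edgeR adjusted p = 0.00361). MIDN, which carries proteins to the proteasome without ubiquitin, had 59.2, 63.0 and 54.1 CPM with HBC530 and 50.004, 47.7 and 44.1 with MsOc3HBC, without overlap, at -0.31 (edgeR adjusted p = 0.00505). UBQLN4, a ubiquitin shuttle, stood at -0.24 (edgeR adjusted p = 0.00767).

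The 2 that rose were NFE2L2, the gene of the transcription factor NRF2, at 0.24 (edgeR adjusted p = 0.0219), and SEM1, a small lid subunit, at 0.18 (edgeR adjusted p = 0.0375). NFE2L2 had 27.6, 26.9 and 25.2 CPM with HBC530 and 31.4, 30.9 and 32.1 with MsOc3HBC, without overlap. NFE2L1 and POMP did not pass in the paired comparison. Without replicate 3 of both ligands NFE2L2 (edgeR adjusted p = 0.0918) no longer passed, while VCP, the segregase that extracts ubiquitinated proteins, passed as lower (0.0362). With GC and length trends removed from the blocked fit, 0 of the 38 genes passed in edgeR, beside 1.65% of all genes. At an unadjusted p under 0.05 there were 12, beside 18.3% of all genes, and the smallest adjusted p was 0.0944, for VCP. Of the markers, NEFL (-0.18) and COL1A1 (-0.31), a collagen gene of fibroblasts, were lower with MsOc3HBC in the same paired comparison, and their part in these values was not tested.

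Without a block, PAAF1 (0.23) and ERAP2 (-0.54) had an unadjusted p under 0.05 with HBC530, where the first is a base-associated chaperone and the second trims peptides for antigen presentation. With MsOc3HBC they were SEM1 (0.36), MIDN (-0.33) and UBQLN4 (-0.25). Between the ligands they were MIDN (-0.31), UBQLN4 (-0.24) and NFE2L2 (0.25). Their adjusted p ranged from 0.352 to 0.751 in edgeR, and these log2 fold changes are given as values.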

How the data were processed

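Total RNA was extracted, treated with DNase and selected for poly(A) in 3 libraries of each treatment, and groups and replicate numbers come from the sample labels. The authors used Trimmomatic 0.36 to trim the reads and STAR 2.5.2b to map them to GRCh38, and took unique gene hits with featureCounts of Subread 1.5.2, and their deposited files hold these raw counts with exonic lengths. Whether read pairs were counted once, the strand setting and the annotation release are not given in the sources used here. In the deposited tables, the signal columns hold counts that the authors divided by DESeq2 size factors, and they were used here only to find the gene names and check the libraries. The same tables hold the authors' own fold changes with their p-values, raw and adjusted, which were not used.

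Members and lists were chosen with earlier results of these data known. Each pair of treatments was fitted in R 4.3.3 with edgeR 4.0.16 on its 6 libraries (filterByExpr, TMM factors, quasi-likelihood F test, Benjamini-Hochberg over all genes tested, 2-sided), after a test of the code on simulated counts in which 200 genes were changed. Standard errors and 95% intervals come from the same fits. TPM use the deposited exonic lengths over all genes, and floors take 3 counts in a library and cover counting error only. Alternatives were DESeq2 1.42.0, RLE and upper-quartile factors, no filter, a minimum of 10 counts per library, a joint fit of the 9 libraries, a replicate block, removal of GC and length trends by splines with 5 degrees of freedom, and libraries left out. Genes named with values were those past the threshold, the 5 members with the smallest p in each comparison, members fixed by role, the highest and lowest TPM of each ring, base and lid group, NFE2L1 and POMP, and associated genes past the threshold with the block, of which 1 is not reported here. Further genes, such as those at an unadjusted p under 0.05 or with libraries that did not overlap, were named after their values were seen, and the CCAAT motif and the canonical and unshared lengths of the members (other lengths kept) were added after seeing the data.

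The replicate numbers were checked by correlating deviations from the treatment means across genes. Between MsOc3HBC and HBC530 the correlations of same-numbered libraries were 0.188, 0.418 and 0.479, each above 0.1, and blocked values are therefore printed. Replicate 2 of MsOc3HBC had 0.338 with replicate 1 of HBC530, and differently numbered pairs with a replicate 3 had -0.158 to -0.522. Deviations within a treatment sum to 0, so replicate 3 standing apart in both ligands also raises the correlations among the other replicates. The check cannot tell this from pairing by number. Against DMSO the correlations of same-numbered libraries were 0.0893, 0.0227 and 0.181 for HBC530, and -0.115, 0.00943 and 0.0465 for MsOc3HBC. The numbers were not taken to pair those libraries. Nothing in the labels says that the replicates came from separate cultures, although the methods call them biological, and p-values measure the spread between these libraries. Of the members, 21 overlap an exon of another gene, and the most abundant pseudogene, PSMC1P1, had 2.66% of the counts of its parent.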

Additional observations from a re-analysis of the deposited data

Results flagged for a closer look

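Between the ligands, 3 members differed when same-numbered libraries were treated as pairs and did not without the pairing. The blocked log2 fold changes of MsOc3HBC against HBC530 were -0.204773 for PSMC4, -0.164276 for PSMD3 and -0.170415 for PSMF1, each lower in 3 of 3 pairs. Without the block their estimates were -0.20, -0.16 and -0.17, with edgeR adjusted p of 0.702, 0.701 and 0.691. All 3 are high-count genes, with between 5214 and 24502 counts in every library. With GC and length trends removed in the blocked fit, none of the 3 was past the threshold, and the part of GC content or length in the differences was not tested further.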

How the results depend on the processing

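In HBC530 against DMSO and in MsOc3HBC against DMSO, 0 members were called in all 15 alternatives of each comparison, with smallest adjusted p of 0.516 to 1.000 and 0.153 to 0.952. The fit without replicate 3 of a ligand is, for these comparisons, the same as leaving that library out. Between the ligands 0 members were called in 14 of 16 alternatives. The replicate block called 3, and leaving out replicate 3 of both ligands called 4. Leaving out any single library called 0. Of 38 associated genes the block called 6 between the ligands, and it changed no other call among the members and these genes. The median log2 fold change of the members ranged from -0.04 to 0.10, from -0.09 to 0.08 and from -0.11 to 0.08 over the alternatives. In size these values were below 0.182, the SD of a single library's member median, which is not their own error. They lay on both sides of 0, so the sign of the median depends on single libraries. The negative value with HBC530 came without HBC530 replicate 3, and the lowest with MsOc3HBC without MsOc3HBC replicate 3.

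The summed TPM of the members was 8957.99 (DMSO), 8955.91 (HBC530) and 8863.81 (MsOc3HBC) when mitochondrial genes were left out of the total. It was 15742.1, 15656.1 and 15455.7 with canonical lengths of the members, and 17935.7, 17705.8 and 17590.1 with their unshared canonical bases. Both lengths were chosen after seeing the data. Each change shrinks a denominator, except that the canonical transcript of PSMF1 (8154 bases) is longer than its exonic length (5296 bases). TPM over the genes that passed the filter moved no sum by more than 1 SD. PSMB8 and PSMB9 are limited by depth, with 7 and 295 counts over 9 libraries.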
